A study of Mus musculus with 6 samples.

Results

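Skeletal muscle genes of calcium handling and energy supply were followed in thyroid glands dissected from 15-day-old mice. The 10 genes were Pvalb, Atp2a1, Casq1 and Ryr1, which handle calcium, and Ckm, Ckmt2, Mb, Eno3 and Pygm, which serve energy supply, together with Tcap of the sarcomere. They are 10 of the 18194 genes that had a probe set of their own on the array, and 13 probe sets assigned to one of these genes alone represent them. The genes were chosen by their known role in muscle and by their signals on all 6 arrays, so every level and difference below is a description and not independent evidence of a pattern. The 3 knockout arrays (knockouts 2, 4 and 6) came from mice lacking Slc26a4, and the 3 heterozygous arrays (heterozygous 1, 3 and 5) came from mice with a single working copy. The gene encodes pendrin, an anion exchanger of the thyroid follicular cell, and the study asked which transcripts differ in the gland when it is lost. The labels give the same age and the same microdissected tissue for both groups, with no treatment. No label used here states the strain, the sex, the kind of deletion or how many animals gave an RNA, so the spread between arrays may be partly technical.

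In a skeletal muscle fibre, the calcium channel RYR1 releases calcium from the sarcoplasmic reticulum, where calsequestrin (Casq1) stores it. The pump SERCA1 (Atp2a1) returns it, and parvalbumin (Pvalb) binds it in the cytosol of fast fibres. The creatine kinases of the cytosol (Ckm) and of mitochondria (Ckmt2) buffer ATP, glycogen phosphorylase (Pygm) and the muscle enolase (Eno3) feed glycolysis, and myoglobin (Mb) stores oxygen. Telethonin (Tcap) caps titin at the Z disc. The thyroid follicle itself holds no skeletal muscle, but the gland lies against the trachea, the oesophagus and the strap muscles of the neck.

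The labelled tissue was checked first. Thyroglobulin (Tg) had signals of 11794 to 13201 on the knockout arrays, against 12449 to 13805 on the heterozygous arrays. The highest over the lowest of the 6 signals was at most 2.63-fold for each of the 9 thyrocyte markers tested. The array with the highest median signal was knockout 6, at 103.6, and the other 5 medians ranged from 78.1 to 93.7. The ratio of the 3′ to the 5′ control probe set for Gapdh, a sign of RNA integrity, was 1.33 to 1.47 on the knockout arrays and 1.32 to 1.47 on the heterozygous arrays. For actin it was 2.74 to 3.13 on the knockout arrays and 2.7 to 3.21 on the heterozygous arrays. Values are linear array signals, and control probe sets for bacterial transcripts reached at most 22.9, which is used as the background. Signals of different probe sets are not compared with each other.

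Of the 10 genes, 9 varied widely between arrays of the same genotype and were highest on the same arrays, while Mb was not. In all 9, heterozygous 1 and knockout 2 had the 2 highest signals, and in 7 of the 10 genes knockout 6 had the lowest. The highest signal was 4.43 to 19.2 times the lowest in these 9 genes. Over all 27022 probe sets tested, 4.51% had a highest signal at least 4 times the lowest, and the median ratio was 1.5. Since the genes were picked with these signals known, that share is given only as background. The share of all probe sets with this top pair or this lowest array was not counted. Among 9 thyrocyte genes tested, 5 had the same top pair and 4 had knockout 6 lowest. With bulk RNA, fewer muscle fibres in a sample and less of a transcript per fibre cannot be told apart.

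Among the calcium genes, Atp2a1 had signals of 4864, 1230.3 and 786 on knockouts 2, 4 and 6, against 5984, 2813 and 1715 on heterozygous 1, 3 and 5. Knockout 2 thus lay above heterozygous 3 and 5, and the groups overlapped. Casq1 read 1637, 412 and 168 in the knockouts, against 2038, 827 and 514 in the heterozygotes, with the arrays in the same order as for Atp2a1. For the release channel, the brighter of the probe sets of Ryr1 had 2544, 772 and 278 in the knockouts and 2699.7, 993 and 1351 in the heterozygotes. The dimmer Ryr1 probe set had 153, 62.1 and 42.5, against 257, 84.4 and 74.6, which places the same arrays at the top and at the bottom.

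Pvalb departed from its partners in how the intermediate arrays fell. It read 5925, 521 and 607 on knockouts 2, 4 and 6, against 6447, 3988 and 772 on heterozygous 1, 3 and 5. Heterozygous 3 therefore stood with the 2 highest arrays, and the remaining 3 lay well below. Knockout 2 exceeded knockout 4 by 11.4-fold for Pvalb, against 3.95-fold for Atp2a1, 3.97-fold for Casq1 and 3.30-fold for the brighter Ryr1 probe set.

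**Figure D1:**
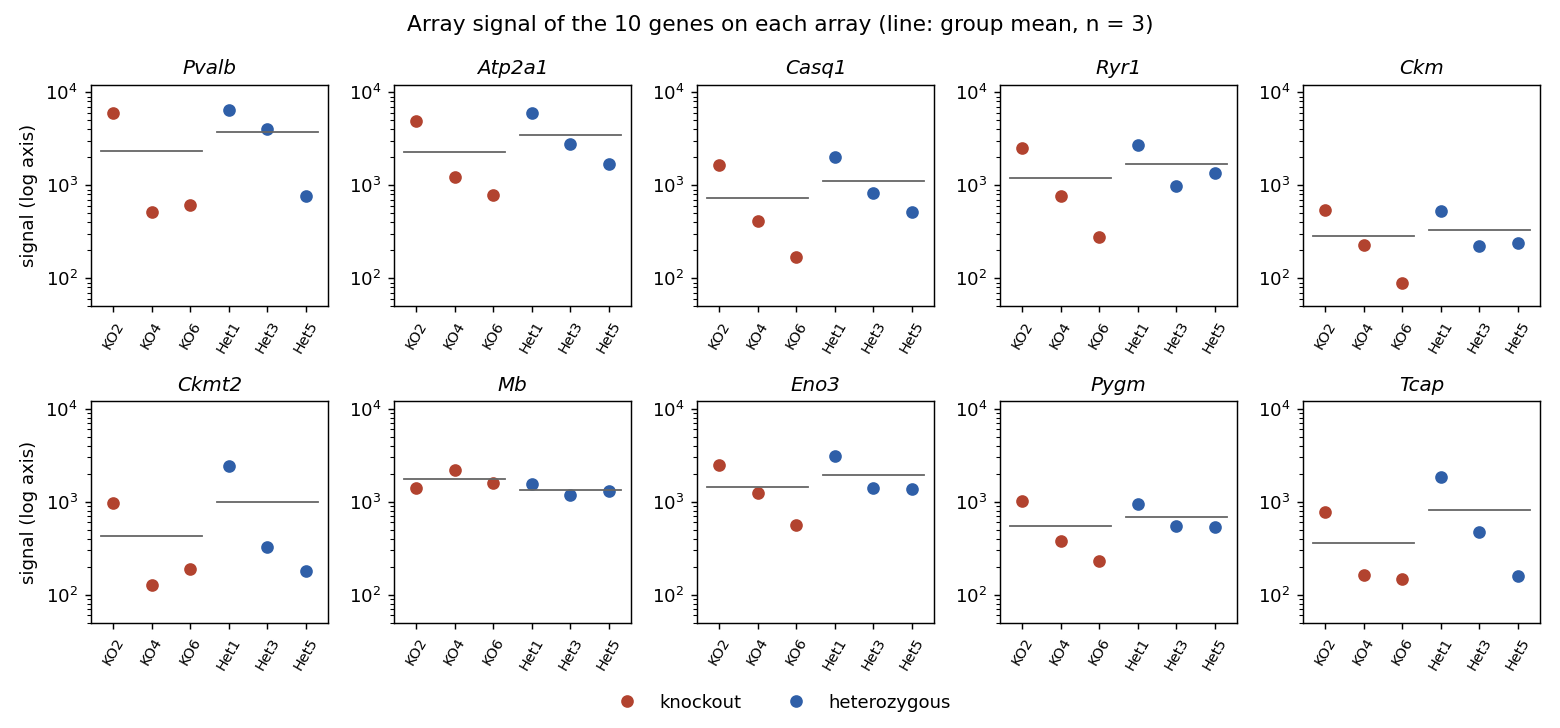
Array signal (log axis) of each of the 10 genes by its brightest probe set, with knockout arrays (KO) left and heterozygous arrays (Het) right; points are arrays and lines are group means (n = 3). In every panel but that of Mb, heterozygous 1 and knockout 2 are the highest points and the range within a genotype exceeds the step between the group means.

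The energy genes of the cytosol shared the top pair of arrays and the lowest array with Atp2a1 and Casq1, and had a narrower spread. Ckm had 545, 230.0 and 89.1 in the knockouts by its brighter probe set, against 534, 225 and 239 in the heterozygotes. A second, dimmer Ckm probe set had 176, 68.2 and 54.3, against 173, 79.7 and 119. Both put knockout 2 and heterozygous 1 almost level at the top and knockout 6 last. Eno3 had 2508, 1235 and 564 on the knockout arrays and 3096, 1417 and 1378 on the heterozygous arrays, where heterozygous 3 and 5 were nearly level. Pygm had 1029, 376 and 232, against 954, 552 and 532, and its highest over its lowest signal, 4.43-fold, was the smallest of the 9.

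Ckmt2 and Tcap separated heterozygous 1 from knockout 2. Ckmt2, the kinase of the mitochondrial intermembrane space, had 979, 128 and 192 in the knockouts, against 2454, 324 and 179 in the heterozygotes. Its heterozygous 1 signal was 2.51 times that of knockout 2, and its whole range of 19.2-fold was the widest of the 10 genes. Tcap had 779, 162 and 147 in the knockouts and 1832, 479 and 159 in the heterozygotes, with heterozygous 1 at 2.35 times knockout 2. For the other 7 genes highest on these arrays, heterozygous 1 lay between 0.928 and 1.24 times knockout 2. On both Ckmt2 and Tcap, knockout 4, knockout 6 and heterozygous 5 formed a low group that included arrays of both genotypes.

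The nearest neighbours among the members themselves followed these divisions only in part. As a measure of likeness, the log2 signals of each gene were centred on the gene's mean, and the root mean square difference over the 6 arrays was taken. Ckm and Eno3 were nearest, at 0.13, followed by Eno3 and Pygm at 0.18 and by Atp2a1 and Casq1 at 0.20. Ckmt2 and Tcap lay 0.36 apart. Across the divisions, Ryr1 was nearer to Ckm (0.34) than to Casq1 (0.36) or Atp2a1 (0.41). Pvalb was nearer to Tcap (0.54) than to Atp2a1 (0.67).

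Mb ran in another order. By its bright probe set it read 1423, 2218 and 1579 on knockouts 2, 4 and 6, against 1575, 1199 and 1292 on heterozygous 1, 3 and 5. Knockout 4 was the highest array and heterozygous 3 the lowest. Knockout 6, the lowest array for most of the other genes, was level with heterozygous 1 behind knockout 4. The whole range was 1.85-fold. The other Mb probe set had 19.7, 27.9 and 29.1 in the knockouts and 23.3, 46.6 and 36.4 in the heterozygotes, below background on knockout 2 and little above it elsewhere, and it was too dim to be tested. It did not follow the order of the bright Mb probe set, nor that of the other 9 genes.

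The order of the arrays was then set against 29 genes of the contractile apparatus, of which 25 passed the filter on dim probe sets. Their median profile put knockout 2 (0.62 on the centred log2 scale) and heterozygous 1 (0.61) at the top and knockout 6 (-1.30) at the bottom. Of the 15 pairs of arrays, the 9 genes ordered between 12 (Ckmt2) and 15 (Pygm) as this list did, whereas Mb ordered 5. This order was not limited to muscle genes. The medians of the thyrocyte and cartilage lists each placed 13 pairs in it, the latter over only 3 tested genes, of which Comp placed 5. The 9 thyrocyte genes tested ranged from 5 (Tg) to 15 (Iyd), with Dio1 at 14, Pax8 at 9 and Nkx2-1 at 8. The paralogs Eno2 (14), Ckmt1 (13) and Pygb (13) also followed it, but Ckb placed 1 and the median of the 11 paralogs tested placed 5. The thyrocyte genes and paralogs named here varied less, with ranges of 1.16-fold for Iyd, 1.86-fold for Dio1 and 2.25-fold for Ckb. The 9 members varied by at least 4.43-fold. The contractile list does not share a gene with the 10, but it was measured on the same RNA and is no independent sample. Myosin heavy chain Myh4, of the fastest fibres, had 5888, 1251 and 199 in the knockouts, against 6311, 1081 and 1684 in the heterozygotes, an order in which heterozygous 3 was not raised as it was for Pvalb. Myh1, of another fast fibre type, had 4593, 2854 and 1313, against 3142, 6383 and 2661, and was highest on heterozygous 3. All 10 genes of a fast subset had a negative log2 difference (median -0.67), while of 4 slow genes tested 3 had a positive and 1 a negative one (median 0.18). Knockout 6 was lowest for all 10 fast genes, so their signs are not independent of each other. The largest slow difference, of Myl3, was 0.30 ± 1.51 (SE), and the contrast of the subsets was not tested. None of either was called by limma, as 0 of all probe sets were, and 50.7% of all probe sets tested had a difference below 0.

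A different set of muscle genes had its own order. The slow light chain Myl3 had 94.8, 1904 and 154 in the knockouts, against 206, 22.2 and 2233 in the heterozygotes. The perinatal myosin Myh8 had 79.1, 461 and 57.6, against 54.4, 14.3 and 534. Sarcolipin (Sln), a small inhibitor of the calcium pump, had 82.7, 399 and 102, against 186, 17.1 and 528. These 3 genes, singled out after their values were seen, were highest on heterozygous 5 and knockout 4, arrays that were low for Pvalb, Ckmt2 and Tcap. The slow genes Myh7, Tnni1 and Myl2 were too dim to be tested.

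**Figure D2:**
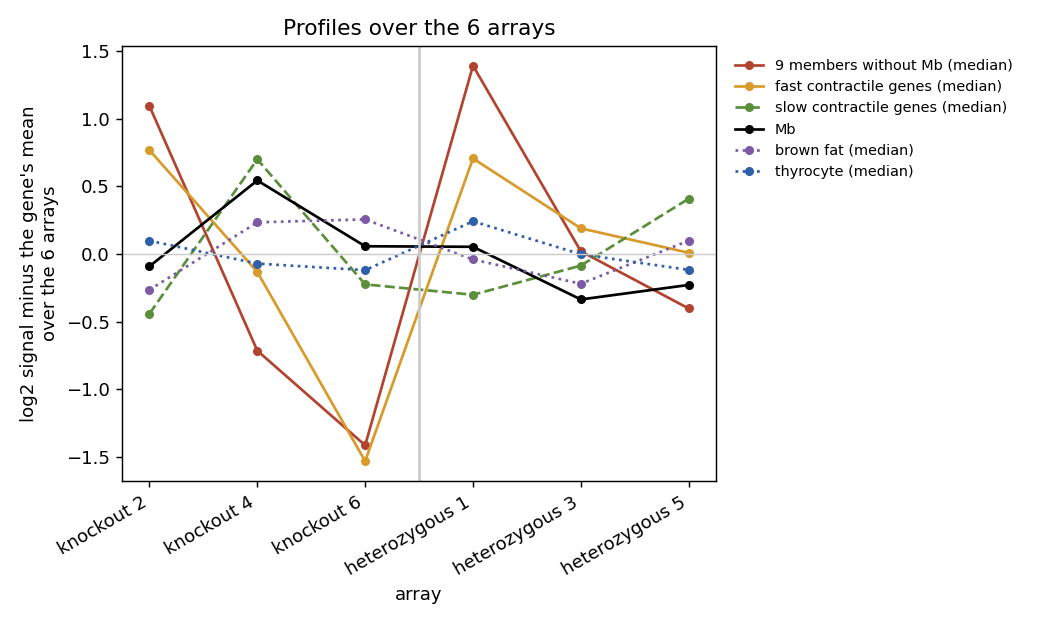
Centred log2 signal (each gene's mean over the 6 arrays subtracted) by array, knockouts left, for the median of 9 members, Mb alone and the medians of 4 other lists; lines only join points of a list. The 9 members and the fast contractile genes peak on heterozygous 1 and knockout 2 and are lowest on knockout 6, while Mb peaks on knockout 4 at 0.54.

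Other genes of calcium handling followed the members in part. Of 18 such genes tested, 14 had a lower and 4 a higher knockout mean, with a median log2 difference of -0.20, and 0 passed in either direction. Triadin (Trdn), which anchors calsequestrin to the release channel, had 1578, 415 and 120.5 in the knockouts, against 1529, 788 and 538 in the heterozygotes, the order of Casq1 with knockout 2 and heterozygous 1 almost level. The brightest genes of this list were Fkbp1a, Atp2a2, Asph and Srl. Atp2a2, the pump of most other cells, had 5907, 6108 and 6039, against 6413, 5526 and 5945. Fkbp1a, the small binding protein of the release channel, had signals whose highest was 1.13 times the lowest. Asph varied by 1.25-fold, while Srl, which encodes a calcium-binding protein of the sarcoplasmic reticulum, varied by 3.64-fold.

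As a list, genes of muscle energy metabolism had a median profile that placed 8 of the 15 pairs in the contractile order, against 14 for the calcium list. This difference was not tested. The list is mixed, from 2 pairs for Slc2a4 and Fbp2 to 15 for Pgam2 and Phkg1. Its genes Fabp3, Cox8b and Cox7a1 are also brown fat markers. Of 19 tested, 11 were lower and 8 higher in the knockout mean, with a median log2 difference of -0.02 and 0 past the threshold. Only 4 of them varied by at least 4-fold, namely Pgam2 (10.9-fold), Cox6a2 (5.10-fold), Phkg1 (4.74-fold) and Ampd1 (4.02-fold). Pgam2, the muscle phosphoglycerate mutase, had 1957, 610.3 and 179 in the knockouts and 1782, 896 and 751 in the heterozygotes. The brightest of the list, Fabp3, Aldoa, Slc25a4 and Cox8b, varied by 1.23-fold to 1.5-fold.

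The paralogs of the members, which serve like steps mainly in other tissues, did not share the spread. The list is not wholly apart from muscle, since Atp2a2, Casq2 and Ryr3 are also among the other calcium handling genes above. None of the 11 tested varied by 4-fold, and the widest was the cardiac calsequestrin Casq2 at 2.67-fold. The liver phosphorylase Pygl had 4574, 4729 and 4909 in the knockouts, against 4566, 3916 and 4895 in the heterozygotes, and the brain form Pygb varied by 1.19-fold. The brain creatine kinase Ckb had 444, 801 and 999, against 631, 573 and 798, and was thus highest on the array where Ckm was lowest. The ubiquitous mitochondrial kinase Ckmt1 varied by 1.85-fold, against 19.2-fold for its muscle counterpart Ckmt2.

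**Figure D3:**
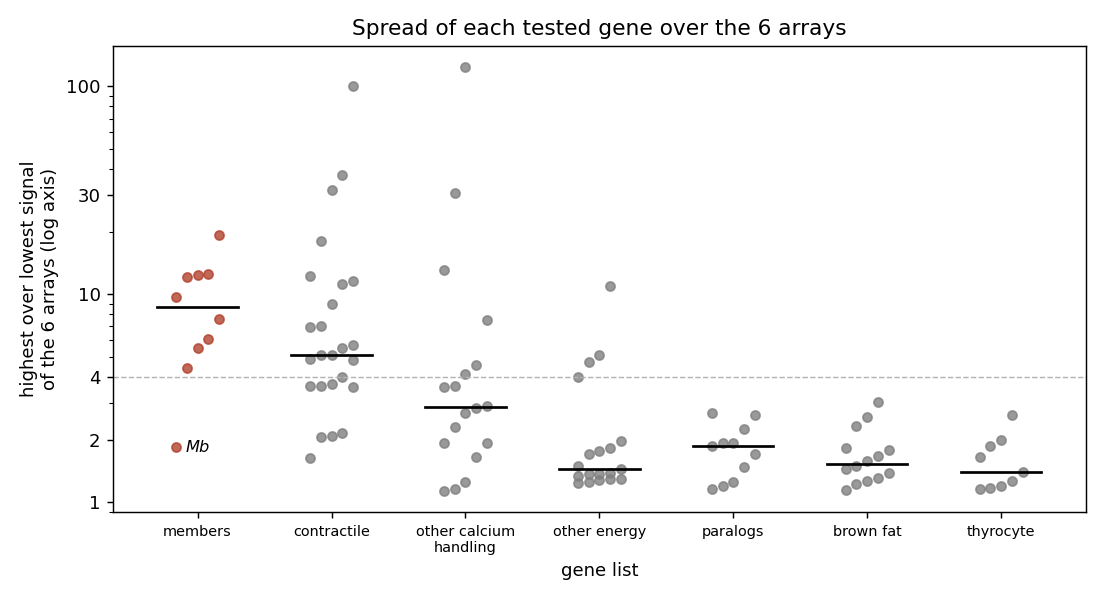
Highest over lowest signal of the 6 arrays (log axis) for each tested gene of 7 lists; points are genes, bars are list medians and the dashed line marks 4-fold. The members have a median of 8.67-fold with Mb alone below the line, while no paralog, brown fat or thyrocyte gene reaches 4-fold.

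By the same root mean square difference, the genes outside the 10 nearest to their median profile were Myoz1 (0.18), Phkg1 (0.19), Hjv (0.22), Myot (0.24) and Aplp1 (0.24). Only the 10216 genes outside the 10 with a mean log2 signal above the 60th percentile were compared, here and for Mb. Dimmer genes were not searched. The median over those compared was 0.94. Myoz1 and Myot encode Z disc proteins, and Phkg1 the catalytic subunit of the kinase that activates glycogen phosphorylase. Phkg1 had 984, 276 and 208 on the knockout arrays, against 955, 428 and 423 on the heterozygous arrays. The profile of Mb was nearest to Ptprc (0.05), a leukocyte surface phosphatase, the glycogen branching enzyme Gbe1 (0.07), C1qtnf9 (0.10), Trmt10c (0.11) and Inafm2 (0.11). With its narrow range Mb lay near many genes, and the median difference from it was 0.32.

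Because Mb is also expressed outside skeletal muscle, its profile was set beside each marker list. Of the 15 pairs of arrays, the brown fat list of 14 tested genes ordered 11 as Mb did. The paralog list also ordered 11 and the other energy genes 10. The slow contractile genes (4 tested) and the heart list (2 tested) ordered 9 each, and the remaining lists of other genes 3 to 7. In root mean square difference from Mb, the heart list lay at 1.05 and the slow genes at 0.37, against 0.22 for brown fat. The brown fat and energy lists share Fabp3, Cox8b and Cox7a1. The summed brown fat signal was 56816, 77295 and 76524 in knockouts 2, 4 and 6, against 65681, 59034 and 74115 in heterozygous 1, 3 and 5. Its uncoupling protein Ucp1 had 9211, 11977 and 11253, against 10639, 9816 and 11159. Both were high on knockout 4 like Mb, but heterozygous 5 was also high for the fat markers and low for Mb. The part of fat, or of any other tissue, in the Mb signal was not tested.

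Markers of other tissues also differed between arrays. The 3 tested thymus and T cell genes were highest on knockout 4, the highest array for Mb, where the summed signal of the 7 genes measured was 3493, against 129.8 to 194 on the other 5. Parathyroid hormone (Pth) read 10100, 11058 and 2788 in the knockouts, against 165, 10356 and 9702 in the heterozygotes, so that it was lowest on heterozygous 1, where 7 of the 10 members and 12 of the 25 contractile genes tested peaked. Of 10 heart markers, 8 were too dim to be tested, with signals of at most 47.3 (Mybpc3), and 4 of the 10 were under background on all arrays. Atrial light chain Myl4 had 176, 257 and 249 in the knockouts, against 206, 115 and 499 in the heterozygotes. Cardiac actin (Actc1), which developing skeletal muscle also expresses, had 1383, 1236 and 188, against 5632, 84.5 and 1342. The smooth muscle list, with 7 tested genes, varied by 1.29-fold to 2.25-fold. Summed thyrocyte signals were 36212 to 43297 in the knockouts and 37182 to 45273 in the heterozygotes. The part of the amount of each tissue in the muscle differences was not tested.

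Between the genotypes, 9 of the 10 genes had a lower and 1 (Mb) a higher knockout mean, and in the 9 the range of the signals within each genotype exceeded the step between the means. By limma at an adjusted p of 0.05, 0 of the 10 genes and 0 of their 12 tested probe sets were called, beside 0 of all 27022 probe sets (0%). At an unadjusted p under 0.05 limma had 138 probe sets in all and 0 of these 12. In none of the 10 were the 3 knockout arrays all above the heterozygous arrays, which held for 1.64% of the probe sets tested, and in none were they all below, which held for 2.04%. Since the genes were selected on these same signals, nothing is read from those counts.

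The fitted differences are on the scale of log2(signal + 16.7), knockout minus heterozygous. Pvalb had the most negative, at -1.12 ± 1.03 (SE), with a 95% interval of -3.49 to 1.25, from means of 2351 ± 3095 and 3736 ± 2846 (SD, n = 3). Casq1 followed at -0.94 ± 0.77 (interval -2.72 to 0.85), from 739 ± 787 and 1126 ± 805. Ckm had the smallest of the 9, at -0.40 ± 0.58 (interval -1.74 to 0.93), from 288 ± 234 and 333 ± 175. Mb stood at 0.34 ± 0.18 (interval -0.08 to 0.76), from 1739.9 ± 421 and 1355 ± 196. Its interval is narrower than those of the others, whose standard errors lay between 0.48 and 1.03, and still spans 0. Averaged over both Mb probe sets, the difference was 0.03.

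The median difference over the 10 genes was -0.84, and -0.86 without Mb, beside -0.0021 over all probe sets tested. It moved with the arrays that entered. Without heterozygous 1 it was -0.23 and without knockout 6 it was -0.17, while without knockout 2 it was -1.64 and without knockout 4 it was -0.55. Leaving out heterozygous 1 and knockout 2 together, the arrays with the most muscle signal in each group, gave -0.81. The difference of Ckmt2 was 0.27 without heterozygous 1 and that of Ckm 0.20 without knockout 6. The difference of Mb was 0.15 without knockout 4.

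**Figure D4:**
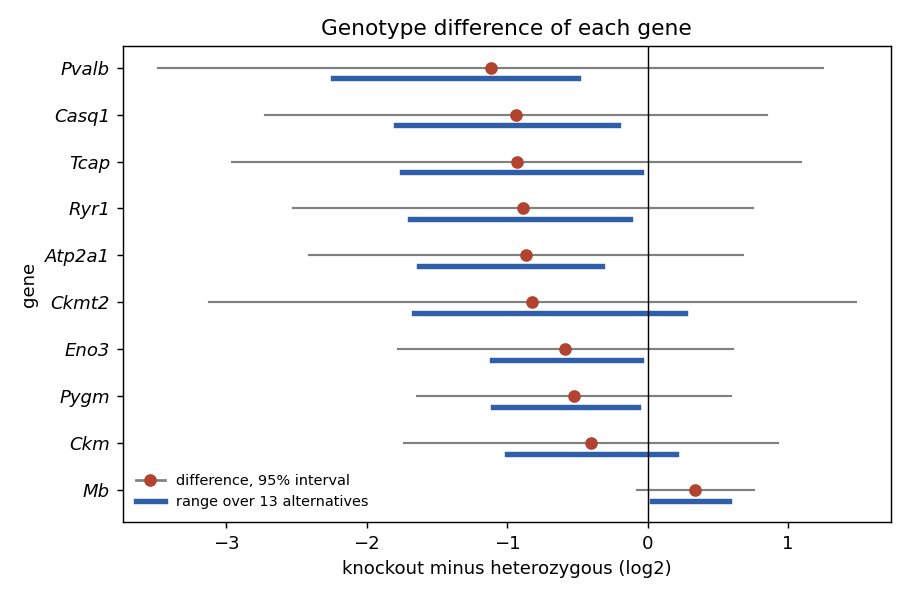
Knockout minus heterozygous log2 difference of each gene (point) with its 95% interval (grey line, n = 3 arrays a group), and the range of the difference over 13 alternative settings (blue bar). Every interval spans 0, and the bars of Ckm and Ckmt2 also do.

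The promoters of the members were read because 9 of them moved together between arrays. RefSeq windows of 250 bases before the annotated start (GRCm38.p6) were found for 9 of the 10 genes, 12 windows in all. The motif CANNTG, the E box to which myogenic factors such as MyoD bind, was searched on both strands, where it reads the same. It occurs in 10 of the 12 windows, of 8 genes, and in 66.2% of all 32851 windows. Its form CAGCTG, which is contained in it, occurs in 7 windows, of 6 genes (Atp2a1, Casq1, Ckm, Ckmt2, Mb and Pygm), and in 13% of all windows. The MEF2 motif was found once, before a start of Pvalb, and in 2.92% of all windows. The CArG box was in 0 of the 12 windows and 1.47% of all, and TATAAA in 0 of the 12 and 12.4% of all. The Mb windows at chr15:77022728-77022977 and chr15:77022788-77023037 overlap and share a CAGCTG, while the Mb window at chr15:77050669-77050918 lies apart from them. A match describes the letters only.

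Windows of Ckm, Pygm and Casq1 are shown as genes that followed the contractile order, and a window of Mb as the gene that did not, 5′ to 3′ on the gene's strand, with CANNTG in capitals. They lie at chr7:19410844-19411093 (plus strand), chr19:6384158-6384407 (plus), chr1:172219896-172220145 (minus) and chr15:77022788-77023037 (minus). All 4 hold CAGCTG, beginning 249 bases before the start for Ckm, 168 and 8 for Pygm, 195 for Casq1 and 133 for Mb, so this motif is found on both sides of that division. It is also absent on both sides. Windows of Pvalb, Ryr1 and Eno3, which followed the contractile order, hold no CAGCTG, nor does the Mb window at chr15:77050669-77050918.
Ckm: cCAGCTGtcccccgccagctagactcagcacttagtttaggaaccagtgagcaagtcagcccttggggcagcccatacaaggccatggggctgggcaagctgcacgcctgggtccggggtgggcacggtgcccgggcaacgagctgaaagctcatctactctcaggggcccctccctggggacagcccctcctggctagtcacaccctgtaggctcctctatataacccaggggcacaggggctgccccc
Pygm: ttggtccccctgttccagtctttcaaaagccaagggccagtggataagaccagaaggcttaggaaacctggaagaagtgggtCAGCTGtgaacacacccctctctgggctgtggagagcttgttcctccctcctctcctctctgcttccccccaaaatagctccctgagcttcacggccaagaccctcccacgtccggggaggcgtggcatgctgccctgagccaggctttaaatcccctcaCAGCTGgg
Casq1: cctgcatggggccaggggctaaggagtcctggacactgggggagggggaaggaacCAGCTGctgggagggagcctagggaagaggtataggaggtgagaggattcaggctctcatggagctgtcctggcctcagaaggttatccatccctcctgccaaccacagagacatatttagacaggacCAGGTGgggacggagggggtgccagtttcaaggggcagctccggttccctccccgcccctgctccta
Mb: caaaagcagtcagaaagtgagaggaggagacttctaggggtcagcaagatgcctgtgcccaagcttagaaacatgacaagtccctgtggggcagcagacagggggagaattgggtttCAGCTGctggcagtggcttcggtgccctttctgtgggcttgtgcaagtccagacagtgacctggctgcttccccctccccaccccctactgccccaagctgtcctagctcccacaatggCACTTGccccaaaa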

How the data were processed

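The deposited values are linear intensities, 1 signal per probe set and array, from Affymetrix mouse 430 2.0 arrays. Per the labels' protocols, RNA was extracted with a Qiagen kit and labelled after NuGEN Ovation amplification. Per the submitters' processing notes the signals came from GCOS, with no settings stated in the labels. Each array's mean after trimming 2% of values at each end was 500.002, so the authors had scaled the arrays, which removes any shift common to most transcripts. Of the 45101 probe sets, 34958 had 1 symbol in the platform annotation, 932 several and 9211 none. Symbols were checked by gene identifier against RefSeq (34754 matched, 0 altered).

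Signals were taken as log2(signal + 16.7), the 25th percentile of all values (this shrinks differences of dim genes). After removal of 64 control probe sets, the 27022 probe sets with a mean above the 40th percentile (a signal of 43.5) were tested with limma 3.58.1 (R 4.3.3), using lmFit and a trended eBayes, and Benjamini-Hochberg adjustment over all of them. The fit was tested on simulated data in which noise was drawn independently for each probe set. Such data hold no shifts shared between probe sets, so they cannot show how the fit handles these. A gene was represented by its brightest probe set. An exact permutation test of 3 arrays against 3 cannot go below p = 0.1. The groups share no sample number, so nothing was paired. The members and lists were chosen with earlier results of these data known. The rule for names took all members, the up to 4 brightest genes of a list where a result turned on them, any gene that a count of 5 or fewer singles out, and the 5 genes nearest in profile to the members' median and to Mb. Myh4, Myh8, Sln, Trdn, Casq2, Eno2, Ckb and Mybpc3 fall outside it and were named after their values were seen.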

Additional observations from a re-analysis of the deposited data

How the results depend on the processing

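Normalization was varied (quantile, cyclic loess, median scaling), as were the pseudocount (0.25 and 4 times), the filter (none, or the percentile raised to 60), the variance model (untrended, robust, array weights), the averaging of a gene's probe sets and the arrays, each left out in turn. Leaving out heterozygous 1 with knockout 2 was added after seeing the data. In all 17 settings of the limma fit, 0 probe sets and 0 members were called. The median difference over the members stayed below 0 in all 13 alternatives run for it, between -1.64 (without knockout 2) and -0.17 (without knockout 6), and between -0.86 and -0.77 in those that kept all arrays. For Mb, the mean of its probe sets gave a difference of 0.03 and placed 3 of the 15 array pairs in the contractile order, since the dim probe set near background then counts equally. Over the alternatives to the order, Mb placed 3 to 7 pairs and the other 9 genes 12 to 15. No paired analysis was possible because the groups share no sample number and no label pairs their samples. The number of arrays limits the precision, and the 95% intervals of all 10 members span 0.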
